A study of Mus musculus with 721 samples.

Results

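Prdm1, Prdm14 and Tfap2c are the transcription factor genes known to act together when primordial germ cells are set aside in the mouse epiblast. They were taken by symbol from the count table and make up 3 of its 24483 genes, all on the autosomes. Their levels were followed in 721 single cells of wild type C57Bl/6Babr mouse embryos with no treatment, with 10 embryos at E3.5. E4.5 is represented by 5 embryos, E5.5 by 9 and E6.5 by 13, where 2 of the 13 are titled E6.75. Trophectoderm was removed by immunosurgery at E3.5 and E4.5, the extraembryonic ectoderm was cut away at E5.5, and extraembryonic tissue was dissected from early streak embryos at E6.5. At E3.5, 9 cells carry no embryo number and were counted as 1 embryo. Counted in this way, the titles give 37 embryos in all. The paper states a smaller number of embryos, and the source of the difference is not known. Embryos served as replicates in the tests, so the number of independent replicates may be lower than the n given here. Wells labelled double, 17.8% of the 721, stayed in the analysis.

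Prdm1 encodes Blimp1, a zinc finger repressor that shuts down the somatic programme in germ cell precursors and is also known from the visceral endoderm. Prdm14 encodes a related zinc finger protein that keeps pluripotency genes on and acts against FGF signalling and DNA methylation, in germ cells and in naive pluripotent cells. Tfap2c encodes the transcription factor AP-2γ, which acts downstream of Blimp1 in germ cells and is a core regulator of trophectoderm and extraembryonic ectoderm. Germ cell precursors arise in the posterior proximal epiblast, next to the extraembryonic ectoderm, in response to BMP signals, and few are present at the early streak stage.

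Expression is given as CPM, counts scaled to the normalized total of a library, after the cells of a class were summed in each embryo that held 3 or more of them, so that each embryo gives 1 value. A cell was scored as positive with at least 1 count. In such sums, fewer positive cells and less RNA per positive cell cannot be told apart, so both the sum and the share of positive cells are given. Cells held 66896 to 3792936 counts (median 692863), and the stages had medians of 553935 (E3.5), 731949 (E4.5), 788667 (E5.5), 742201 (E6.5) and 492200 (E6.75). Cells were clustered without the 3 genes, the germ cell genes, genes of partner proteins, AP-2 and Prdm relatives and DNA methylation genes discussed here. The BMP and Wnt genes, the somatic mesoderm genes and the trophoblast and anterior visceral endoderm markers were not held out. Some of these, such as Mixl1, Eomes and T, were also among the streak markers used to name classes. Their values by class are therefore not independent of the classes. E3.5 held 99 cells, which were treated as 1 class, inner cell mass. The clusters gave 29 epiblast-like cells, led by Tdgf1 and Fgf4, and 76 primitive endoderm (PrE)-like cells, led by Cubn and Amn, at E4.5. At E5.5 there were 260 epiblast-like and 7 endoderm-like cells. At E6.5 and E6.75, 250 cells in all, there were epiblast-like cells, 41 endoderm-like cells led by Dpp4 and Apob, 23 primitive streak-like cells of 1 embryo led by Mesp1 and Aplnr, and 7 cells of a cluster left unnamed. The E6.5 epiblast-like cells fell into 95 cells of 9 embryos on plates P1 to P3 and 84 cells of 4 embryos whose titles name no plate, and the 2 sets were kept apart because they clustered apart.

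On GRCm38, the build to which the reads were aligned, Prdm1 lies on chromosome 10 from 44437177 to 44528501 on the minus strand, with 4 annotated transcripts of up to 8 exons. Prdm14 lies on chromosome 1 from 13113457 to 13127163 on the minus strand with 1 transcript of 8 exons, and Tfap2c on chromosome 2 from 172549593 to 172558622 on the plus strand with 6 transcripts of up to 7 exons. None of the 3 overlaps another annotated gene, so their counts are not shared with a neighbour. Prdm1 was the member matched in the RefSeq promoter sequences used here, and the 250 bases before its RefSeq start are shown to place its transcripts. They lie at chr10:44458749-44458998 (GRCm38.p6, minus strand), directly upstream of the annotated transcript with 8 exons and inside the first intron of the transcript that starts farthest upstream, and are written 5′ to 3′ with CpG dinucleotides in capitals.
Prdm1: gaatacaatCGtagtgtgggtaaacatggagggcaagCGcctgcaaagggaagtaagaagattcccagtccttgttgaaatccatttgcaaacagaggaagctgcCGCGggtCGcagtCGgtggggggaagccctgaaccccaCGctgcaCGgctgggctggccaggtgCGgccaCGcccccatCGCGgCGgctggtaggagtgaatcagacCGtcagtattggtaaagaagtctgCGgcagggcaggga
The stretch holds 15 CpG dinucleotides, against a median of 6 over all promoters of the same length, and 27.3% of promoters hold as many. Neither the AP-2 motif GCCNNNGGC nor the T-box motif AGGTGTGA was found in it on either strand, and 13.7% and 1.12% of 32851 promoters hold them. The absence of these letters says nothing about binding by either factor family.

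The plot of levels by embryo shows the course of all 3 genes. Tfap2c and Prdm14 were high at E3.5, and almost no count of either was left at E4.5. Tfap2c was detected in a minority of cells from E5.5 on. Prdm1 was near 0 at E3.5, was found in scattered cells of both lineages afterwards and was most frequent in the endoderm-like and streak-like cells of E6.5.

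**Figure D1:**
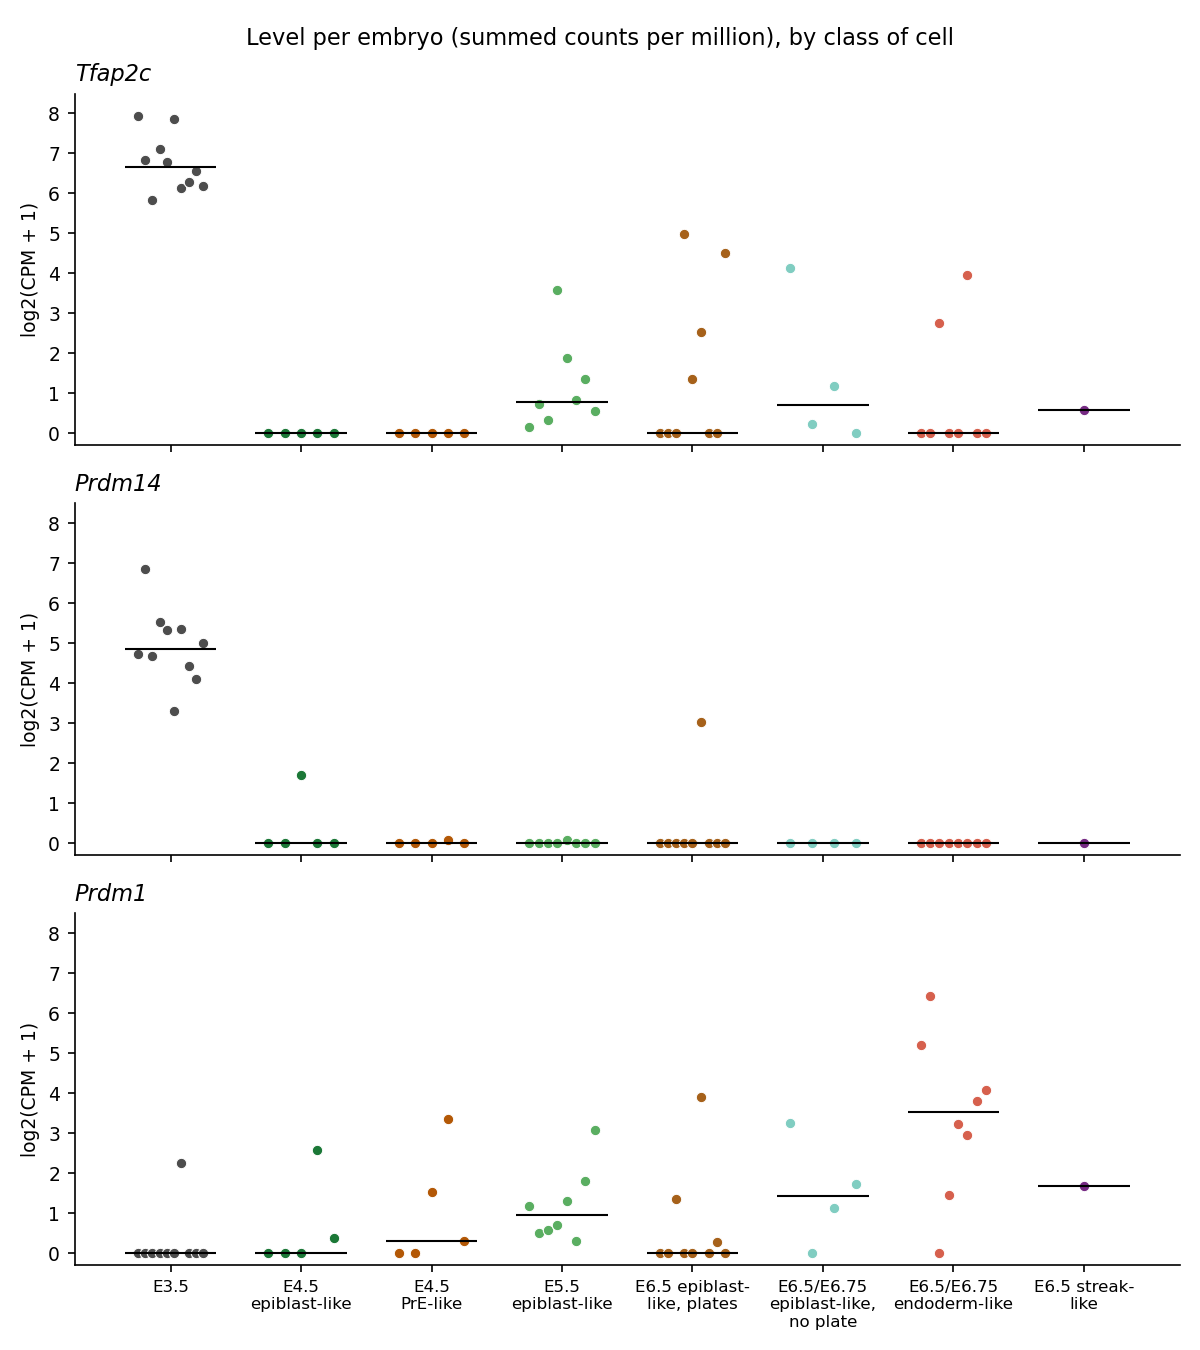
Level of Tfap2c, Prdm14 and Prdm1 in each embryo, as log2(CPM + 1) of counts summed over the cells of a class (vertical axis), by stage and class (horizontal axis). Each point is 1 embryo and each bar is the median of a class. Tfap2c and Prdm14 sit highest in the 10 sums of E3.5, and Prdm1 has its highest median in the 8 sums of E6.5 and E6.75 endoderm-like cells, 1 of which is at 0.

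At E3.5 Tfap2c was found in 84 of 99 cells (84.8%, exact 95% interval 76.2 to 91.3%) and in every embryo. Its level in the 10 sums had a median of 101.1 CPM and a mean of 120.4 ± 66.7 CPM (SD), from 55.96 CPM in embryo 2 of plate P8 to 244.02 CPM. The highest value was that of the 9 cells without embryo number, all of them positive. Embryos of plate P8 had 129.6 ± 64.7 CPM (SD, n = 5) and those of plate P9 77.9 ± 10.9 CPM (SD, n = 4), and the part of the plate in this spread was not tested. Prdm14 was found in 46 of 99 cells (46.5%, 36.4 to 56.8%), again in every embryo. Its level ran from 8.97 to 115.3 CPM with a median of 28.3 CPM and a mean of 36.8 ± 29.9 (SD, n = 10). The top value came from embryo 1 of plate P8, and the other 9 sums lay at or below 45.5 CPM. Prdm1 had counts in only 2 of the 99 cells, both in embryo 6 of plate P9, where the sum reached 3.78 CPM, and 54 of its 55 counts came from 1 cell. Intervals over cells cover counting error only, since the reads carry no molecular identifiers and cells of an embryo are not independent.

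In single E3.5 cells Prdm14 and Tfap2c were mostly found together, as Tfap2c was found in most cells. Of the 46 cells with Prdm14, 40 also held Tfap2c (86.96%), against 83.02% of the 53 cells without Prdm14. Over the 5 embryos with at least 3 cells of both kinds, the share of Tfap2c cells was 6.78 percentage points higher among Prdm14 cells, which did not pass an exact two-sided sign-flip permutation test (p = 0.25, the smallest possible being 0.0625). Spearman's rho between their levels was 0.02 over 99 cells, a description of cells that share libraries and embryos. E3.5 cells did not split into lineages here, but markers differed by how often they accompanied each gene. Sox17, an endoderm transcription factor, was found in 19.6% of cells with Prdm14 and in 43.4% of those without it. The endoderm markers as a whole gave mixed values. A median of 6.5 of 17 markers was found with Prdm14 and 6 without, while their summed level had medians of 882.1 and 1052.9 CPM. Gata6, another endoderm factor, was found in 86.96% of cells with Prdm14 and 94.3% of those without, at medians of 150.5 and 135.4 CPM. Fgf4, a ligand made by early epiblast cells, was found in 63.04% and 49.1%. Nanog, a naive pluripotency factor, had a median of 359.9 CPM in the 84 cells with Tfap2c and 125.8 CPM in the 15 without it. Cells with Tfap2c were shallower (median total 512833 counts) than those without (673379). These are shares over cells and were not tested.

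From E3.5 to the E4.5 epiblast-like cells, Tfap2c and Prdm14 fell. Tfap2c had 0 counts in all 29 epiblast-like cells, which allows a share of up to 10.3%, and in all 5 embryos. This and the other such limits are on cells with a count, not on cells that express the gene. Taking 3 counts over the class as the limit, the pooled level at E3.5 was at least 725-fold higher. Prdm14 was 0 in 4 of the 5 embryos and 2.25 CPM in embryo 3 of plate P2, where 1 cell held 8 counts, which gives an 86.4-fold lower pooled level than at E3.5 (43.7 to 200-fold, 95% counting interval). Neither gene's E4.5 values overlapped those of E3.5, where the lowest sums were 8.97 CPM for Prdm14 and 55.96 CPM for Tfap2c. Both were called by edgeR's quasi-likelihood test (adjusted p = 5.83e-04 for Tfap2c and 0.00917 for Prdm14, log2 fold change of Prdm14 -6.29 ± 1.77 SE), in a comparison that called 18.6% of 17094 genes in either direction and 5.7% as lower. With sums of at least 5 cells the adjusted p of Prdm14 was 0.0637. The mean share of Prdm14 cells over embryos went from 48.3% (n = 10) to 4% (n = 5) and that of Tfap2c cells from 90.4% to 0% (exact two-sided permutation test over embryos, adjusted p = 0.0040 for each over 30 tests).

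The PrE-like cells of the same 5 embryos showed the same loss. Tfap2c had 0 counts in all 76 cells, which allows a share of up to 3.95%, so that the pooled E3.5 level was at least 2346-fold higher. Prdm14 had 2 counts, in 1 cell of embryo 4 of plate P2 (0.068 CPM), and was 0 in the other 4 embryos, a pooled level 1117-fold below E3.5 with an interval of 309 to 9232-fold. The values of both stages lay apart for both genes. Tfap2c and Prdm14 were called lower (edgeR, adjusted p = 2.18e-04 and 5.75e-04), where 17.8% of genes were called in either direction and 5.12% as lower. The shares of cells moved with them (exact permutation test over embryos, adjusted p = 0.0040 for each). Between the E4.5 lineages, Prdm14 was lower in PrE-like cells by 3.79 on the log2 scale with an unadjusted p of 0.0374 and did not pass edgeR's adjustment (adjusted p = 0.188, with 4.43% of genes called in either direction). That difference rests on the 8 counts of 1 epiblast-like cell.

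Prdm1 was found in more embryos at E4.5 than at E3.5. Among epiblast-like cells its level was 4.99 CPM in embryo 4 and 0.308 CPM in embryo 5 of plate P2 and 0 in the other 3 embryos. In PrE-like cells it was 9.27 CPM in embryo 4, 1.90 in embryo 3 and 0.233 in embryo 5 of plate P2 and 0 in both embryos of plate P1. All Prdm1 counts of E4.5 thus came from the 3 embryos of plate P2, in both lineages. Depth differed between the plates. The PrE-like sums of plate P1 held 6152903 and 4589551 counts over 12 cells each. Those of plate P2 held 5011165 counts over 8 cells, 31919578 over 27 and 17309497 over 17. The part of depth in this pattern was not tested. Prdm1 cells made up 3 of 29 epiblast-like cells (10.3%, 2.19 to 27.4%) and 7 of 76 PrE-like cells (9.21%, 3.78 to 18.1%), against 2.02% at E3.5. The mean share of Prdm1 cells was 0.714% at E3.5 and 9.58% in the PrE-like cells of E4.5, a difference with an exact permutation p of 0.044 and an adjusted p of 0.165. The sums did not pass edgeR (adjusted p = 0.273 for PrE-like and 0.62 for epiblast-like cells against E3.5, 0.850 between the lineages).

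**Figure D2:**
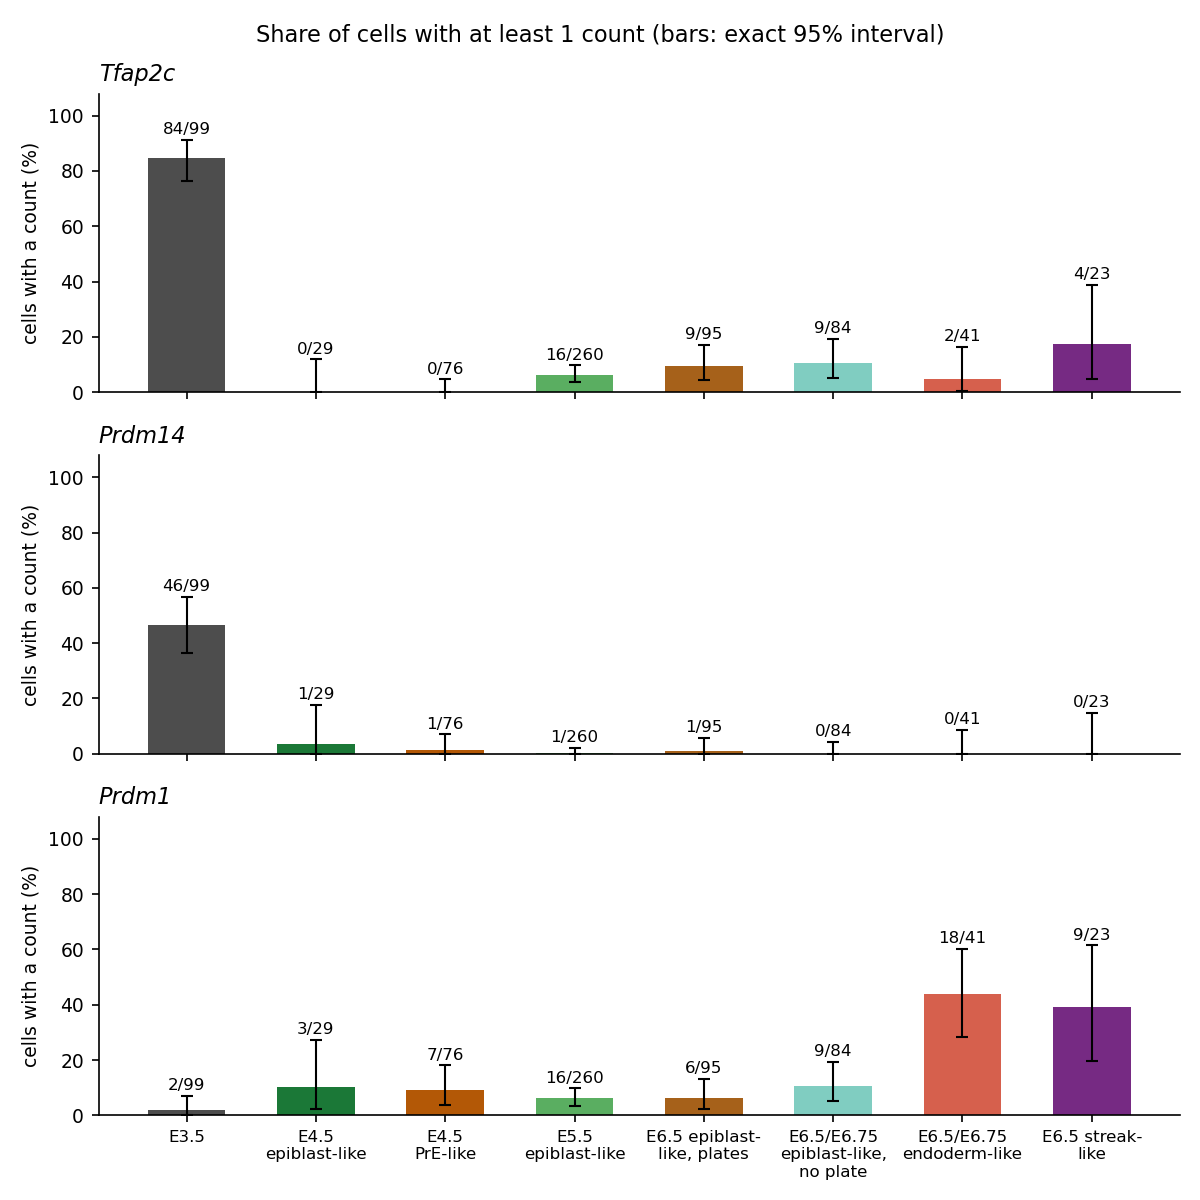
Share of cells with at least 1 count of Tfap2c, Prdm14 and Prdm1 (vertical axis, percent) by stage and class, with exact 95% binomial intervals as lines and the number of positive cells of all cells above each bar. Tfap2c reaches 84.8% and Prdm14 46.5% of cells at E3.5, and Prdm1 43.9% of E6.5 and E6.75 endoderm-like cells.

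At E5.5 Tfap2c was detected in 1 to 4 epiblast-like cells of each of the 8 embryos summed. It was found in 16 of 260 cells (6.15%, 3.56 to 9.80%), and the 8 sums ran from 0.109 to 10.96 CPM with a median of 0.718 CPM. The highest value belonged to embryo 1 of plates P2.P3 and the next to embryo 2 of those plates at 2.68 CPM, and all 8 lay above the E4.5 embryos, which were all at 0. The mean share of Tfap2c cells was 7.40% over 8 embryos against 0% over 5 (exact two-sided permutation test, p = 0.0016, adjusted p = 0.0078). The E4.5 sums held 4 to 7 cells each, and the limit of 10.3% set by 0 of 29 cells includes the E5.5 share. The call was lost when a cell needed 10 CPM (adjusted p = 0.163) or when only wells labelled single were used (adjusted p = 0.326). The pooled level at E5.5 was at least 9.85-fold above E4.5 epiblast-like cells, or at least 4.35-fold without embryo 1 of plates P2.P3, and the sums did not pass edgeR (adjusted p = 0.0974, with 5.18% of genes called). Prdm14 had 1 count in 260 cells, in embryo 2 of plates P2.P3. Its drop from E4.5 was called by edgeR (log2 fold change -4.75, adjusted p = 0.0341, with 3.07% of genes called lower), yet the E4.5 level was that of 1 cell, and without that embryo the log2 fold change was 0.61 with an adjusted p of 0.918. Prdm1 was above 0 in all 8 embryos, from 0.235 to 7.51 CPM with a median of 0.962, and in 16 of 260 cells (6.15%), and the change from E4.5 did not pass (edgeR, adjusted p = 0.901). In the top embryo, embryo 6 of plates P7.P4.P5, 1 cell reached 189.2 CPM and held 46.5% of the Prdm1 counts of the whole class. Only 1 of the 260 cells, in a well labelled double, held Tfap2c and Prdm1 together. Of the 7 endoderm-like cells of E5.5, 1 had a single Prdm1 count and none had Prdm14 or Tfap2c.

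Among the E6.5 epiblast-like cells on plates, Tfap2c was found in 9 of 95 cells (9.47%). It was 30.9 CPM in embryo 4 and 4.82 and 1.57 CPM in embryos 6 and 5 of plate P2, 21.9 CPM in embryo 9 of plate P3, and 0 in the other 5 embryos. A single cell of embryo 4, with 592 Tfap2c counts (496 CPM), held 81.2% of the counts of the class. Among the cells without plate name it was found in 9 of 84 (10.7%), at 16.5 CPM in embryo 1 and 0.178 CPM in embryo 2 titled E6.5, and 1.29 and 0 CPM in the 2 embryos titled E6.75. Both sets overlapped E5.5, and Tfap2c passed neither comparison (edgeR, adjusted p = 0.3797 on plates and 0.939 without plate name, with 14.7% and 1.08% of genes called). Prdm1 on plates was 14.1 CPM in embryo 6 of plate P2, 1.57 in embryo 3 of plate P1, 0.213 in embryo 8 of plate P3 and 0 in the other 6. Without plate name it was 8.54 and 0 CPM at E6.5 and 1.199 and 2.33 CPM at E6.75. Prdm1 passed neither comparison with E5.5 (adjusted p of 1 on plates and 0.999 without plate name by edgeR). Between the 2 sets of embryos none of the 3 genes was called (0.614% of genes were), and Prdm14, lower without plate name by 6.15 on the log2 scale, had an adjusted p of 0.140.

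Prdm14 was found in 1 of the 250 cells of E6.5 and E6.75. That cell, in embryo 6 of plate P2, held 37 counts, which gave its embryo 7.13 CPM while the other 8 embryos on plates were at 0. The rise of Prdm14 from E5.5 was called by edgeR (log2 fold change 5.55, adjusted p = 0.00425, with 6.13% of genes called higher) and ended without this cell (log2 fold change -0.60, adjusted p = 0.665). None of the 84 epiblast-like cells without plate name, the 41 endoderm-like or the 23 streak-like cells had a Prdm14 count, which allows shares of up to 3.57%, 7.32% and 13.04%.

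The same cell held all 3 genes and was the only one of the 721 to do so. It lay in a well labelled single, clustered with the epiblast-like cells and had 1201943 counts and 5913 genes detected, against medians of 703802 and 5862.5 in the other 94 epiblast-like cells on plates. Its counts were 30 for Prdm1 (24.96 CPM, exact Poisson interval 16.8 to 35.6), 37 for Prdm14 (30.8 CPM, 21.7 to 42.4) and 17 for Tfap2c (14.1 CPM, 8.24 to 22.6). Kit, the stem cell factor receptor of migrating germ cells, reached 133.9 CPM, and the highest of the other 94 cells had 76.4 CPM. Dppa3, the germ cell marker Stella, had 13 counts (10.8 CPM) and was found in 13 of the other 94 cells, 9 of which were as high or higher. The BMP receptor gene Bmpr2 was also above all other 94 cells (113.2 CPM, the highest of the others being 110.2), and the BMP target Id1 was at 206.3 CPM, with 9 of the 94 as high or higher. Id2 was at 435.1 CPM against a median of 8.74 CPM in the other cells, and 3 of the 94 were as high or higher. Bmp2 was at 12.5 CPM, and 6 of the 94 were as high or higher. Further genes of the BMP and Wnt list did not follow. Id3 was at 391.9 CPM against a median of 664.8 CPM in the other cells, and Smad1, Smad5, Acvr1 and Bmp4 were at 0. Sox2, Sall4, Lin28a and Elavl2 were present, as they were in most cells of the class. The cell had 0 counts of Nanos3, Dnd1, Alpl, Ifitm3, Ifitm1, Cxcr4, Itgb3 and Nanog, of the streak genes T, Mesp1 and Mixl1, and of all 9 trophoblast markers. In number it did not stand out, with 6 of 14 early germ cell genes against a median of 6 in the other cells, 1 of 10 later germ cell genes against 1, 1 of 9 somatic mesoderm genes against 2, and 9 of 15 BMP and Wnt genes against 8. These counts come from 1 cell and have no replicate.

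Of the 250 cells of E6.5 and E6.75, 65 held at least 1 of the 3 genes, 43 with Prdm1, 25 with Tfap2c and 1 with Prdm14. Prdm1 and Tfap2c met in 3 cells, so Tfap2c was found in 7.0% of Prdm1 cells and in 10.6% of the others. The 3 cells were the one with all 3 genes, an epiblast-like cell of embryo 1 without plate name (47 Prdm1 and 34 Tfap2c counts, with 4 of 9 trophoblast markers and no Dppa3 or Kit) and a streak-like cell (2 counts of each, with T, 3 counts of Nanos3 and also 4 of 9 trophoblast markers). With at least 3 counts, with 10 CPM or after thinning to 300000 counts per cell, 2 cells remained. Within epiblast-like cells only 3 embryos could be compared, and the difference of -3.92 percentage points had an exact sign-flip p of 1 (smallest possible 0.25). Over all classes, 7 embryos gave -6.09 points (p = 0.125, smallest possible 0.0156), which did not pass.

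**Figure D3:**
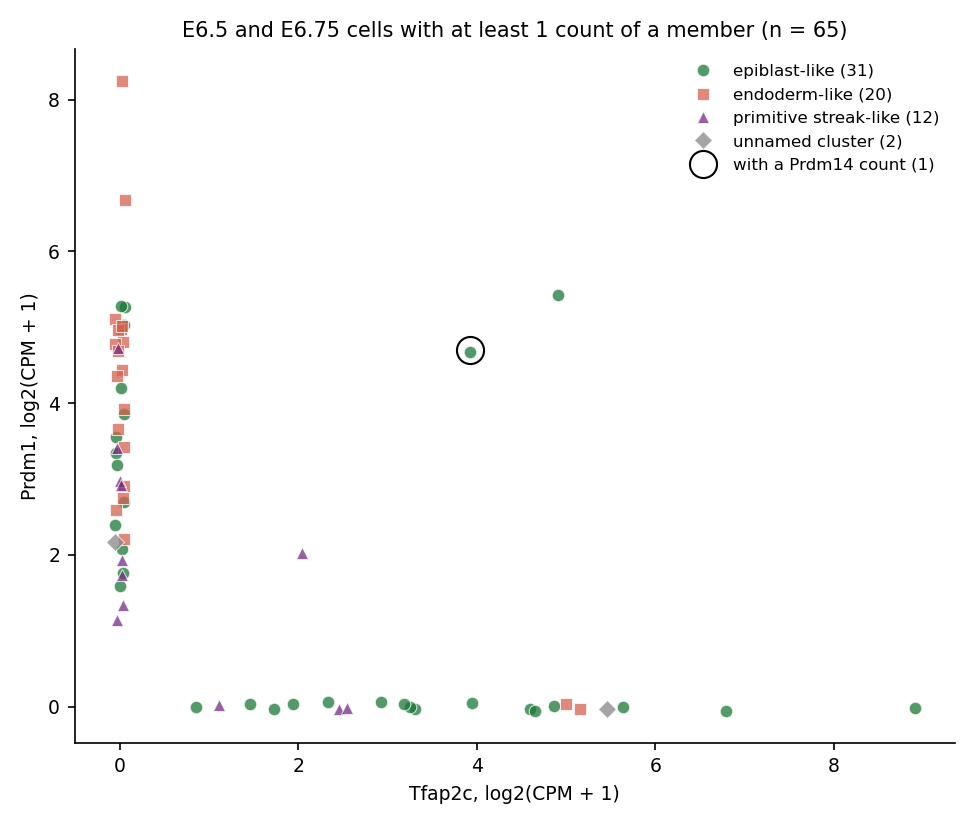
The 65 E6.5 and E6.75 cells with at least 1 count of Tfap2c, Prdm1 or Prdm14, with Tfap2c on the horizontal and Prdm1 on the vertical axis, both as log2(CPM + 1) with slight jitter, by class. Cells lie along the axes except for the 3 with Prdm1 and Tfap2c, and a ring marks the cell with Prdm14.

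Prdm1 was detected in many of the E6.5 and E6.75 endoderm-like cells, 18 of 41 (43.9%, 28.5 to 60.3%; 46.2% after thinning), against 6.32% of epiblast-like cells on plates and 10.7% of those without plate name. The streak-like cells, with 39.1% of 23 cells, lay within the interval. Median totals were 894844 counts in the endoderm-like and 706247 and 496326 in the epiblast-like cells. Over embryos, the endoderm-like sums were 0, 1.77, 6.77, 8.46, 13.1, 15.8, 36.1 and 84.9 CPM (mean 20.9 ± 28.2 SD, n = 8), and the 13 epiblast-like sums had 7 at 0 and a highest value of 14.1 CPM. The groups overlapped, since embryo 6 of plate P2 had the lowest endoderm-like and the highest epiblast-like value. The mean share of Prdm1 cells was 51.8 ± 26.4% (SD, n = 8) against 8.82% (n = 13), an exact two-sided permutation p of 0.0004 and an adjusted p of 0.0040. Within the 8 embryos with at least 3 cells of both classes, the share was higher in endoderm-like cells in 7 and lower in 1, by 38.9 percentage points on average (exact sign-flip p = 0.0391). Embryos with fewer endoderm-like cells were not counted here. Of these, embryo 1 of plate P1, embryo 4 of plate P2 and embryo 9 of plate P3 had no Prdm1 cell in either class. Embryo 2 titled E6.5 had Prdm1 in 1 of 2 endoderm-like and 0 of 7 epiblast-like cells. The difference in mean share was present on plates (43.6 against 6.42%, exact permutation p = 0.0210). In the embryos without plate name it had an exact permutation p of 0.0571, the smallest possible (65.6 against 14.2%). The sums were higher by 3.17 ± 1.4 (SE) on the log2 scale and did not pass edgeR (unadjusted p = 0.0278, adjusted p = 0.111, and 0.240 with the embryo as a block), where 13.9% of genes were called in either direction and 6.67% as higher. One cell of embryo 5 of plate P2 held 394 counts, 53.2% of the class.

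**Figure D4:**
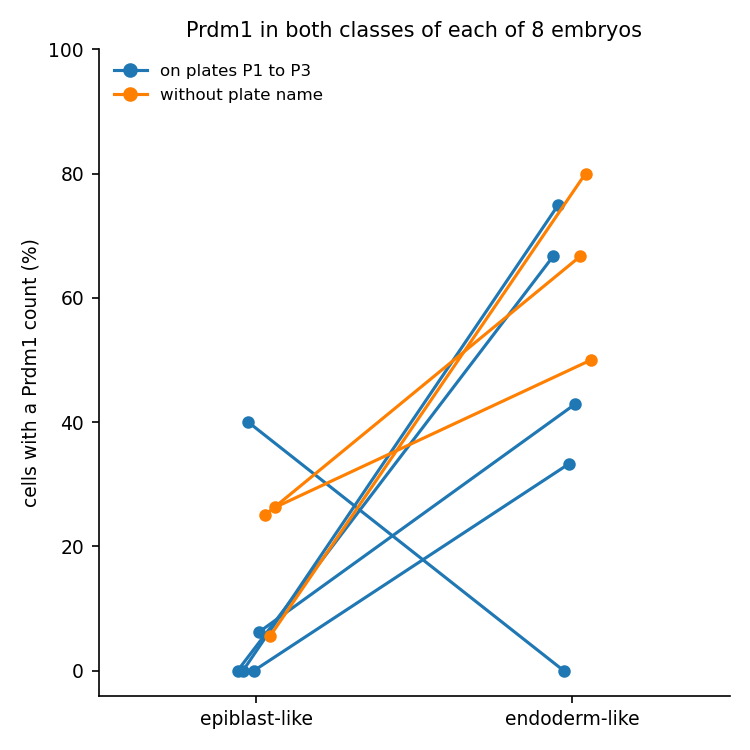
Share of cells with a Prdm1 count (vertical axis, percent) among the epiblast-like and endoderm-like cells of the same embryo, 1 line for each of the 8 embryos with at least 3 cells of both classes, coloured by plate name. The line rises in 7 embryos and falls in 1, embryo 6 of plate P2.

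From E4.5 PrE-like to E6.5 endoderm-like cells the mean share of Prdm1 cells went from 9.58% (n = 5) to 51.8% (n = 8), with an exact permutation p of 0.0124 and an adjusted p of 0.0533, which became 0.0466 with thinned counts. The sums did not pass edgeR (adjusted p = 0.266, with 11.3% of genes called). Tfap2c was called higher in the endoderm-like cells of E6.5 (edgeR, adjusted p = 0.0223, pooled level at least 73.8-fold higher, or 27.4-fold without embryo 1 titled E6.5), where 4.08% of genes were called higher, and this rested on 2 cells, at 14.5 CPM in embryo 1 without plate name and 5.82 CPM in embryo 6 of plate P2 with 0 in the other 6 embryos. Those cells had totals of 3438775 and 1376958 counts, against a median of 847050 in the endoderm-like cells without Tfap2c. The call was lost with single wells (adjusted p = 0.0516 by edgeR) and without embryo 4 or 5 of plate P2 at E4.5 (0.0560 and 0.0502). The share of Tfap2c cells did not pass its own test (exact permutation test, adjusted p of 1).

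Markers of the anterior visceral endoderm, the endoderm that patterns the epiblast, were found in cells with and without Prdm1. Hhex was found in 9 of the 18 cells with Prdm1 and 60.9% of the 23 without, Cer1 in 9 of 18 and 65.2%, Lefty1 in 27.8% and 43.5%, and Dkk1 in 66.7% and 60.9%. Summed over the 4 anterior markers the medians were 81.4 and 289 CPM, and the cells reached from 0 to 3106 CPM with Prdm1 and from 0 to 3839 CPM without. The trophoblast list had a median sum of 70.7 CPM with Prdm1 and 24.3 CPM without. A median of 2 of its 9 markers was found in both sets of cells. Cdx2 was found in 7 of 18 and 3 of 23 cells. Wnt7b and Krt7 went the other way, at 0 in all 18 cells with Prdm1 and present in some without it. The part of the trophoblast markers in the Prdm1 result was not tested. In the streak-like cells, all of 1 embryo, Prdm1 was found in 9 of 23 (39.1%, and 33.3% after thinning), with 1 to 7 counts in 8 of them and 18 in the other, and Tfap2c in 4 of 23 with 1 to 3 counts. Their sums were 2.22 CPM for Prdm1 and 0.4926 CPM for Tfap2c and lay within the range of the 4 epiblast-like embryos without plate name. No gene of the series passed edgeR in that comparison (0 of 17094, with 271 at an unadjusted p under 0.05 and 24 by DESeq2), which has 1 streak-like sum.

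Trophoblast markers were found in some of the cells with Tfap2c. Of the 16 E5.5 epiblast-like cells with Tfap2c, 2 held Elf5, 2 Cdx2, 4 Gata3 and 2 Hand1, genes of trophectoderm and extraembryonic ectoderm. The same 2 cells, of embryo 1 of plates P2.P3, held Elf5, Cdx2 and Hand1, and the other 14 had none of the 3. In the E5.5 epiblast-like cells without Tfap2c the shares were 0.410%, 0.820%, 1.64% and 0%. At E6.5 and E6.75, 5 of 18 Tfap2c cells held Elf5, 4 Cdx2 and 3 Hand1, against 11.8%, 5.59% and 4.35% of the others, and 1 of the 18 held all 3. These are shares over cells and were not tested. At E6.5 and E6.75 the 9 trophoblast markers had a median sum of 28.9 CPM (0 to 623) with Tfap2c and 2.91 CPM (0 to 361) without. Tpbpa was at 0 in all Tfap2c cells. Tfap2c cells were also deeper there (median total 808593 against 605949 counts). The study removed trophoblast cells with over 1 count each of Elf5, Wnt7b and Tex19.1, and 4 cells in the table still met this, 2 at E3.5 and, at E5.5, the same 2 cells of embryo 1 of plates P2.P3. All 4 held Tfap2c, and 1 of the E5.5 cells held 45.8% of the Tfap2c counts of the E5.5 epiblast-like class. The marker list does not cover every Tfap2c cell, since the one with 592 counts had 0 of the 9 markers. After E3.5, 32 cells had over 1 count of Elf5, and 8 of them held Tfap2c. Without these 32 cells the Tfap2c comparison of E4.5 with E5.5 had an adjusted p of 0.146 by edgeR. That of PrE-like with E6.5 endoderm-like cells kept its call (edgeR, adjusted p = 0.0370). The removal could not test this call, since the 2 endoderm-like cells with Tfap2c had 0 counts of Elf5. Both held Wnt7b (12 and 78 counts), found in 3 of 39 endoderm-like cells without Tfap2c, but neither held Gata3, Ascl2 or Krt7. The part of trophoblast cells in the Tfap2c counts from E5.5 on was not tested beyond these values.

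**Figure D5:**
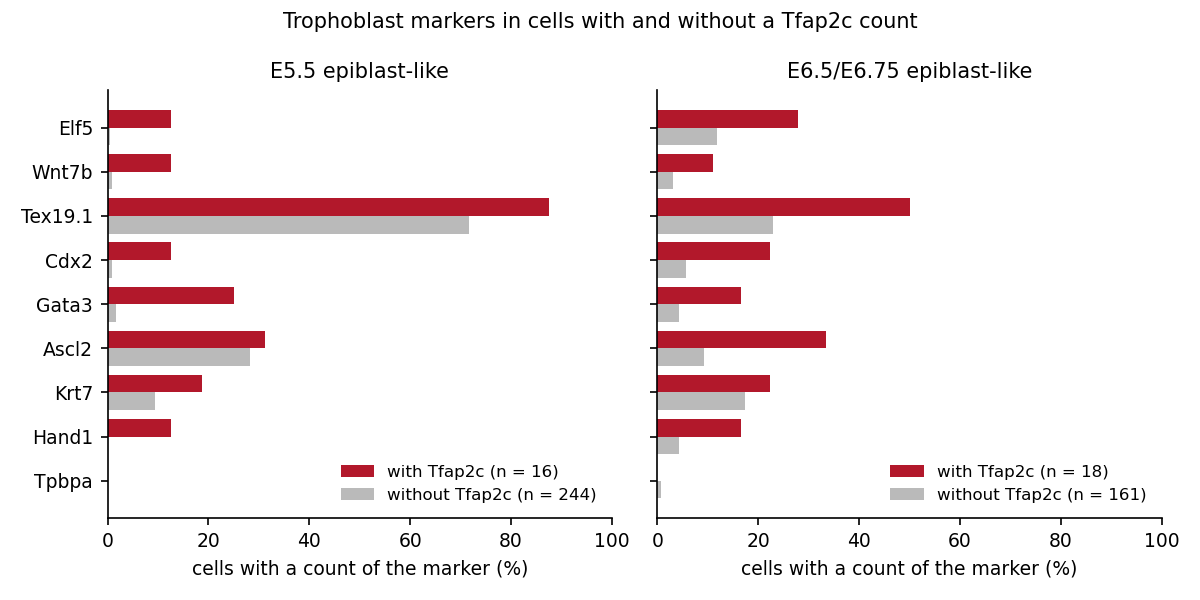
Share of epiblast-like cells with a count of each of 9 trophoblast markers (horizontal axis, percent), in cells with and without a Tfap2c count, at E5.5 (16 cells with) and at E6.5 and E6.75 (18 cells with). Elf5 was found in 12.5% against 0.410% of cells at E5.5 and in 27.8% against 11.8% at E6.5 and E6.75.

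The genes that work with the 3 factors were followed in the same comparisons. Of 14 early germ cell genes, 4 rose and 1 fell from E3.5 to E4.5 epiblast-like cells, where 12.9% of all genes rose. Lin28a rose from 11.6 to 171.3 CPM and Ifitm1 from 0.082 to 91.97 CPM, while Dppa3 fell from 4815 to 261.3 CPM (edgeR, log2 fold changes 3.88, 9.22 and -4.20). From E5.5 to E6.5 epiblast-like cells on plates, 1 rose and 3 fell, with Nanog up from 10.6 to 86.1 CPM and Dppa3 (58.8 to 5.15 CPM), Dnd1 (12.01 to 0.772 CPM) and Nanos3 (0.961 CPM to 0) down. Of all genes, 6.13% rose and 8.57% fell in that step. Of 10 later germ cell genes, 4 fell in that step, among them the meiotic gene Hormad1 (158.9 to 4.74 CPM) and the germ cell gene Stk31 (27.6 to 0.752 CPM), and none rose. Of 15 genes of the BMP and Wnt signals that act before the 3 factors, 4 rose and none fell in the same step. They were Eomes (13.9 to 126.2 CPM), Wnt3 (2.56 to 27.2 CPM), Smad5 (11.3 to 61.6 CPM) and Bmp2, which was 0 in all 8 embryos at E5.5 and 5.47 CPM on average at E6.5. Of 9 somatic mesoderm genes that Blimp1 is known to hold down in germ cells, 4 rose, with Mixl1 at 0.437 and 45.8 CPM.

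Of 14 genes for partners of the 3 proteins, 2 rose and 1 fell from E3.5 to E4.5 epiblast-like cells, where 18.6% of all genes were called, and 1 was higher and 3 lower in E6.5 endoderm-like than in epiblast-like cells, where 13.9% were. Tle4, a Groucho corepressor, rose from 27.2 to 209.3 CPM in the first of these steps, Ehmt2 also rose and Wdr77, a partner of Prmt5, fell, and Prmt5 and Cbfa2t2, the partner of Prdm14, were called in none of the 10 comparisons. Cited2, a coactivator of AP-2 proteins, was higher in PrE-like than in epiblast-like cells at E4.5 (99.4 against 11.02 CPM, log2 3.16, with 2.22% of genes called higher) and again in endoderm-like cells at E6.5 (122.6 against 31.8 CPM, log2 2.04). Of the 8 DNA methylation genes, 4 rose between E3.5 and E4.5 epiblast-like cells, where 12.9% of all genes rose. Dnmt3b went from 34.3 to 433 CPM, Dnmt3a from 45.5 to 421 CPM and Dnmt3l from 21.6 to 620 CPM. From E3.5 to PrE-like cells 3 rose and 1 fell, where 17.8% of all genes were called. From E4.5 to E5.5 epiblast-like cells 1 rose and 2 fell, where 5.18% were called. Among relatives of the members, 2 of the other 4 AP-2 genes and 10 of the other 13 Prdm genes had enough counts to be tested. Tfap2a was called lower from E3.5 to PrE-like cells, from 2.46 ± 7.21 CPM (SD, n = 10) to 0, where 5.12% of genes were called lower. It was already at 0 in 6 of the 10 embryos of E3.5. Tfap2e was called lower from E5.5 to E6.5 on plates, from 0.220 CPM to 0 (edgeR, adjusted p = 0.0499). In that step 8.57% of genes were called lower, and Tfap2e was already at 0 in 5 of the 8 embryos of E5.5. Of the Prdm genes, Prdm6 was higher in PrE-like cells (9.30 CPM, n = 5) than in epiblast-like cells at E4.5, where it was 0 in all 5 embryos.

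Across all 51 sums of a class in an embryo, Prdm14 and Tfap2c had a Spearman correlation of 0.65, Prdm1 with Prdm14 -0.28 and Prdm1 with Tfap2c -0.29. The sums share embryos, plates and stage, and 28, 14 and 28 of them held a count of Prdm1, Prdm14 and Tfap2c. The genes most like Tfap2c were Fbxl20 (0.78), Crip2 (0.76), Rnf213 (0.75), Gpr161 (0.74) and AC140240.1 (0.73). Those most like Prdm14 were Bhmt-ps1, Gm12790, AC125068.1, Gm15622 and 1 of the rows named Gm16513 (0.87 each), at 2.77 to 232.4 CPM on average at E3.5 and at most 0.23 CPM in every later class. Those most like Prdm1 were Fmnl3 (0.72), Rgs16 (0.65), Sorl1 (0.64), Reep6 (0.64) and Lrig3 (0.62).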

How the data were processed

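Single cells were isolated from embryos by hand, and full-length cDNA made by G&T-seq and Smart-seq2 was sequenced as 100 bp paired ends. The authors trimmed the reads, mapped them to GRCm38, discarded alignments with a mapping quality under 20 and counted the rest per gene in SeqMonk. The submitters' processing notes name Trim Galore 0.4.3 and HISAT2 2.0.5. Cells with fewer than 4000 genes or over 10% mitochondrial reads and trophoblast cells had been taken out by the authors. The deposited file holds whole-number counts, not normalized, for 24483 autosomal genes.

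Groups came from the titles. Classes were rebuilt by consensus clustering after SC3's steps (8 clusters over all cells, 5 at E6.5, genes detected in 6 to 94% of cells, 66 genes of the report held out) and named by markers, so they may differ from the study's. The 3 genes, the gene lists and the tests were chosen with earlier results of these data known. List genes were named where they passed, at most 4 per list and comparison. The 5 genes most like each member have the highest Spearman correlation of log2(CPM + 1). Kit, Bmpr2, Id1, Id2 and Bmp2 in the cell with all 3 genes were picked after their values were seen.

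The 51 sums entered 1 edgeR 4.0.16 fit (R 4.3.3, TMM scaling, its low-count filter leaving 17094 genes, quasi-likelihood test, Benjamini-Hochberg adjustment). Calls needed an adjusted p of 0.05 or less together with a log2 fold change beyond 1, or beyond 2 between the E4.5 lineages. For a class where a gene had no count, the pooled level is set against 3 counts over that class in place of a fitted fold change. Shares of positive cells were compared by exact permutation over embryos (Python 3.11.15), adjusted over 30 tests, and 46 cells under 300000 counts were left out of thinned shares. The edgeR fit was tested on simulated sums. Classes of 1 embryo are paired by the embryo: their deviations from the class means correlated at 0.0105 to 0.0952 over 5 embryos at E4.5 and at -0.00479 to 0.0385 over 8 at E6.5. Alternatives were DESeq2 1.42.0, other scaling, no filter, single wells, Ward clustering, other minimum numbers of cells, the groups of a contrast alone, an embryo block and leaving out embryos of groups of up to 5.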

Additional observations from a re-analysis of the deposited data

Results flagged for a closer look

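In 17 groups of 4 to 10 embryos, the highest and the lowest value were tested against their distance to the next. The highest stood apart in 14. The limits flag about 1 in 20 groups only where values are normally distributed, which does not hold here. The genes are at 0 in most embryos of many groups, so 1 positive cell is enough. Where all embryos but 1 are at 0 the flag is certain, so the 14 cannot be set against that rate. Tfap2c stood apart at E5.5 in embryo 1 of plates P2.P3 (10.96 CPM), in embryo 1 titled E6.5 among the epiblast-like cells without plate name (16.5 CPM) and in the same embryo among the endoderm-like cells (14.5 CPM). Prdm14 stood apart at E3.5 in embryo 1 of plate P8 (115.3 CPM), at E4.5 in embryo 3 of plate P2 among epiblast-like cells (2.25 CPM) and embryo 4 of plate P2 among PrE-like cells (0.068 CPM), at E5.5 in embryo 2 of plates P2.P3 (0.054 CPM) and at E6.5 on plates in embryo 6 of plate P2 (7.13 CPM). Prdm1 stood apart at E3.5 in embryo 6 of plate P9 (3.78 CPM), at E4.5 in embryo 4 of plate P2 in both the epiblast-like (4.99 CPM) and the PrE-like cells (9.27 CPM), at E5.5 in embryo 6 of plates P7.P4.P5 (7.51 CPM), and at E6.5 in embryo 6 of plate P2 among epiblast-like cells (14.1 CPM) and embryo 5 of plate P2 among endoderm-like cells (84.9 CPM).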

How the results depend on the processing

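Of 403 recomputed values, 355 kept their direction and their side of the threshold or stayed within 1.5 times, and the causes of the other changes were not tested. For single genes, 13 recomputed values of 18 results changed. The log2 fold change of Prdm14 ran from -5.10 to 0.61 between E4.5 and E5.5 and from -5.65 to 1.66 between the E4.5 lineages when E4.5 embryos were left out, turning direction without embryo 3 of plate P2. From E5.5 to E6.5 on plates it was -0.60 without the cell with all 3 genes. That removal, the removal of cells with Elf5 and the folds without an embryo were chosen after seeing the data. With DESeq2, Tfap2c from E4.5 to E5.5 passed and Prdm14 in that step did not (adjusted p = 0.195). In the tests of shares, 6 of 30 passed, and 6 to 7 without single embryos, where Prdm1 from PrE-like to endoderm-like cells passed without embryo 2 titled E6.5 (adjusted p = 0.0480).

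Percentages of tested genes called moved more. With only the groups of a contrast in the fit they were 17.04% from E4.5 to E5.5, 9.40% from E5.5 to cells without plate name, 9.01% between the E4.5 lineages and 0.992% by plate name, and 8 genes for the streak-like cells. In that fit, with fewer genes tested, 1357 of 9941 and 1610 of 10525 genes were called from E3.5 to E4.5 epiblast-like and PrE-like cells (3183 and 3048 in the fit of all classes), 1690 from E5.5 to plates (2513), 1127 between the E6.5 classes (2369) and 801 from PrE-like to endoderm-like (1924). DESeq2 called 1.81% from E5.5 to cells without plate name, 7.37% between the E4.5 lineages, 1.35% by plate name and 24 genes for the streak-like cells. Leaving out the 5 embryos of E4.5 and the 4 without plate name in turn, the only embryos left out of the fits, gave 14.8 to 16.03% and 14.2 to 15.5% from E3.5 to epiblast-like and PrE-like cells, 3.32 (without embryo 4 of plate P2) to 4.07% from E4.5 to E5.5, 0.623 to 0.891% from E5.5 to cells without plate name, 1.99 to 2.55% between the E4.5 lineages, 8.54 (without embryo 1 titled E6.75) to 11.1% between the E6.5 classes, 8.19 to 8.92% from PrE-like to endoderm-like, 0.201 to 0.504% by plate name and 0 to 1 gene for the streak-like cells. Without cells titled E6.75 they were 0.554% from E5.5, 4.61% between the E6.5 classes and 0.295% by plate name. Between the E4.5 lineages, Ward clustering gave 1.15% and sums of at least 1 cell 2.80%. By plate name, sums of at least 1 cell gave 0.300% and no filter 0.399%. Sums of at least 5 cells gave 7.34% between the E6.5 classes and 2 genes for the streak-like cells, which had 1 with another scaling and 1 without the filter. With the replicate block, the embryo, the values were 10.2% between the E4.5 lineages and 7.32% between the E6.5 classes, and the block changed no call of the 3 genes. The block could not be fitted for the streak-like cells. A class of cells with a count that is rarer than the limits given beside counts of 0 was not detectable.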
